A study of Mus musculus with 16 samples.

Results

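The genes described here are 8 genes that, in the central nervous system, are expressed mainly by microglia: Tyrobp, Ctss, Lgmn, Mpeg1, Cd68 and the complement genes C1qa, C1qb and C1qc. They were taken by the gene symbol of the array's annotation, which gave 11 probe sets of 12422 that are not controls, for 8 genes of 8251 with a symbol. The samples were RNA of mouse spinal cord, hybridised to 16 arrays of 1 colour. The spastic mouse carries a recessive mutation of Glrb, which encodes the beta subunit of glycine receptors, and the titles do not say which allele or strain the control animals carry. The 4 control samples were a female and a male of 12 months and a female and a male of 9 months, each on 2 arrays. The 5 spastic samples were a female of 6 months (titled Spa-M, 2 arrays), females of 2 months titled Spa1 and Spa2, a sample titled sev, male and 3 months, and a sample titled male and 3+ months. The last reference was 1 sample of B6C3Fe, a hybrid mouse stock, male and 1 month old, on 2 arrays. No treatment is named for any group. Where a sample had an array a and an array b, their mean was used as 1 sample. Nothing in the titles says that samples were single animals, so p-values measure the spread between these samples, which may be partly technical.

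Levels are log2 of the authors' intensity, and a difference of 1 is a 2-fold change of it. Every spastic sample was younger than every control, so age and group cannot be told apart. The Glrb signal was 12.70 to 13.30 on control arrays, 12.92 to 12.98 on B6C3Fe arrays and 9.92 to 11.11 on spastic arrays, with no overlap. Both spastic samples titled male had the female pattern, with Xist at 10.54 and 10.37 and the Y-linked gene Eif2s3y at the floor of 5.93, so their titled sex was not borne out. The log2 ratio of the 3' to the 5' control probe sets of Pcx, a measure of RNA integrity and labelling, was 1.53 to 2.02 in control samples, 1.78 in B6C3Fe and 2.00 to 2.98 in spastic samples. Array a of the 9-month female control stood apart, with a Pcx ratio of 2.72 against 1.31 on array b and the lowest median correlation with its group, 0.919. Markers of spinal cord were high on every array, with Mbp of myelin at 13.18 or more, Snap25 of neurons at 13.68 or more, Gfap of astrocytes at 11.53 or more and the trunk-level Hoxc8 at 9.65 or more. In bulk tissue, fewer microglia and less RNA per microglial cell cannot be told apart.

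Microglia are the resident macrophages of the brain and spinal cord, and they clear debris, prune synapses and respond to injury. Tyrobp, also called DAP12, is the adaptor through which receptors such as Trem2 signal into these cells. What they engulf is broken down in the lysosome, where the cathepsin encoded by Ctss and the legumain encoded by Lgmn cut proteins. The products of C1qa, C1qb and C1qc are the 3 chains of C1q, which binds targets and starts the classical complement pathway. The 3 genes lie side by side in the RefSeq annotation of GRCm38.p6, between Ephb2 and Epha8.

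The 2 promoters below are shown because they hold the motif to which the myeloid factor PU.1 binds, and because their genes fell on opposite sides of the test that follows. The sequences are RefSeq's on GRCm38.p6, from 250 bases before the start site to 50 after. Of the 8 genes, 6 had entries, with 7 promoters in all. Capitals mark matches to GAGGAAGT, a PU.1-type motif, or to an IRF-type motif, a pair of GAAA with 2 bases of any kind between, each searched on both strands. The Ctss window is chr3:95526536-95526835 on the plus strand, and the C1qc window is chr4:136892865-136893164 on the minus strand.
Ctss: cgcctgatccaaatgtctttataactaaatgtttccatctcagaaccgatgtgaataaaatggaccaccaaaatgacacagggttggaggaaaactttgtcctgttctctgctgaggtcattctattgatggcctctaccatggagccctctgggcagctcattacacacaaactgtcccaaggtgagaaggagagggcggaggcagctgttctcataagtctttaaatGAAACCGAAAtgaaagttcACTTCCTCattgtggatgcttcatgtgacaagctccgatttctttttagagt
C1qc: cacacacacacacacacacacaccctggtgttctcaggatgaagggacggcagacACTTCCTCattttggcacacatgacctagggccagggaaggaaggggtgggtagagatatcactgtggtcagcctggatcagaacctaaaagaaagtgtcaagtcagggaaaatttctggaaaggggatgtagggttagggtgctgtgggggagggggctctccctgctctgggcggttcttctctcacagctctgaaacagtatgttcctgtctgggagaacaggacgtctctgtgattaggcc
In Ctss the IRF-type match begins 21 bases before the start site and the PU.1-type match, which spans the start site on the other strand, 2 bases before it. In C1qc the PU.1-type match, again on the other strand, begins 195 bases before the start site. The PU.1-type motif was in 3.20% of 32851 promoters of this length and the IRF-type motif in 3.44%. The lysosomal E-box CACGTG, held by 7.15% of promoters, was in 1 of the 7, the second start of Lgmn, 49 bases before that start. A match is a description of letters and not of binding.

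**Figure D1:**
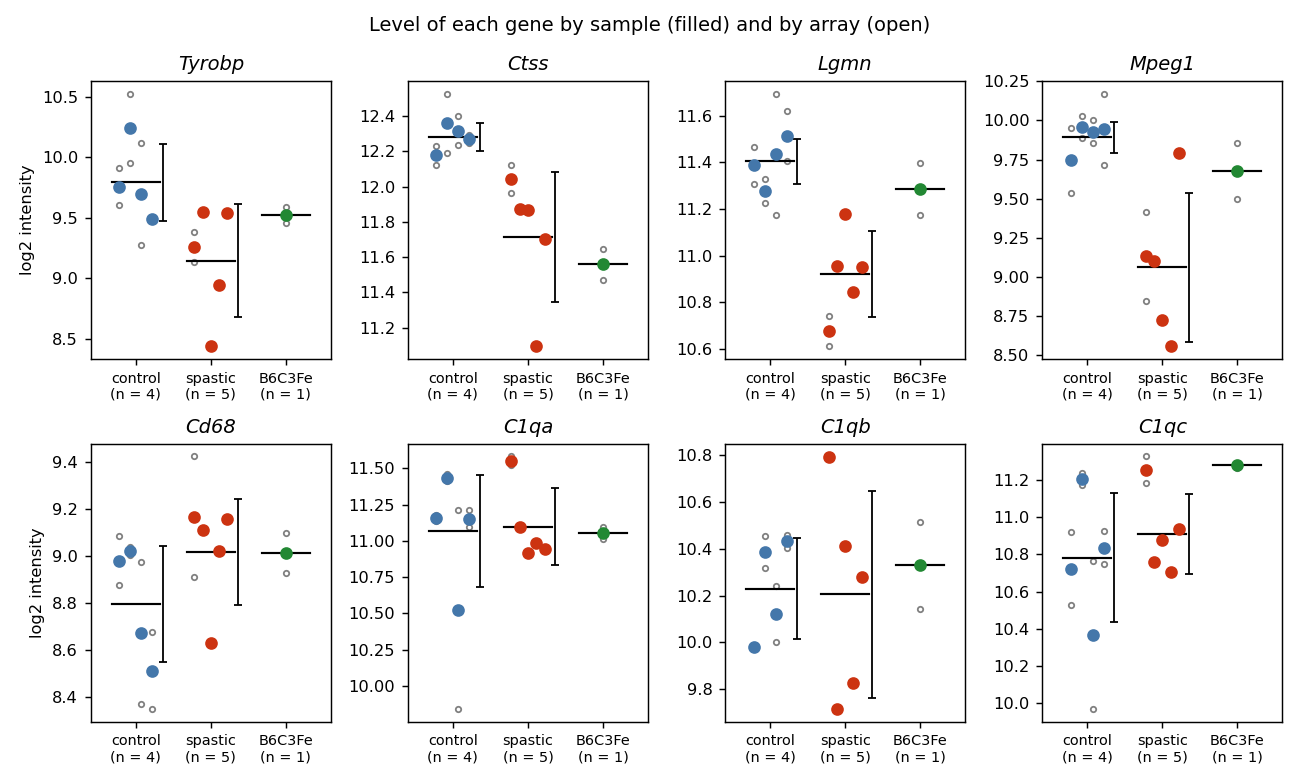
Level of each of the 8 genes in every sample, as log2 of the deposited intensity on the vertical axis, for control, spastic and B6C3Fe samples. Filled points are samples, open points single arrays, lines group means and bars SD. All 5 spastic samples lie under the 4 controls for Ctss and Lgmn, and 4 of 5 do for Mpeg1, while the groups overlap for Cd68, C1qa, C1qb and C1qc.

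The central comparison of the series is that of spastic with control cord. Tyrobp, Ctss, Lgmn and Mpeg1 were lower in spastic cord, by 1.39- to 1.82-fold, whereas Cd68 and the 3 C1q genes did not pass the test. Thus 4 of the 8 genes were called, all of them lower (limma, adjusted p under 0.05 over all genes tested). Over the 6427 genes tested, 19.8% were called, 9.83% higher and 9.93% lower, so a call in this comparison was common. The median difference of the 8 genes was -0.25 and that of all genes -0.02. All 8 passed the filter on low values.

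Tyrobp, the signalling adaptor, was read by 1 probe set (100397_at). Its level was 9.76 and 10.24 in the 12-month female and male controls and 9.69 and 9.49 in the 9-month female and male controls. In spastic cord it was 9.26 in the 6-month female, 9.55 and 9.54 in the 2-month females, 8.44 in the sample titled sev and 8.94 in the one titled 3+ months, and B6C3Fe had 9.52. The 2 spastic samples titled male were the lowest, and 3 of 5 spastic samples lay under every control, with the 2-month females inside the control range. The spastic mean was 9.15 ± 0.47 (SD, n = 5) against 9.79 ± 0.32 (SD, n = 4) in controls. Tyrobp fell by 0.68 on the log2 scale (SE 0.22, 95% interval -1.16 to -0.21, limma adjusted p = 0.0463), or 1.61-fold. This call was the least stable of the 4. Leaving out any 1 sample gave differences from -0.80 to -0.46, and the call was kept only without the 9-month female control or without the 2-month female titled Spa2. Without array a of the 9-month female control the Tyrobp difference was -0.57 (adjusted p = 0.122). The model holds titled sex, which was not borne out for 2 of the 5 spastic samples, and with no sex term the difference was -0.65 and no longer called (adjusted p = 0.0684).

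Ctss encodes cathepsin S, a cysteine protease of lysosomes and endosomes that trims the invariant chain in antigen presentation. The level on its 1 probe set (98543_at) was 12.18, 12.36, 12.32 and 12.27 in the controls, in the order given for Tyrobp. Spastic samples had 12.04 (6 months), 11.87 and 11.70 (2 months, Spa1 and Spa2), 11.87 (sev) and 11.09 (3+ months), and B6C3Fe had 11.56. Controls were tightly grouped, all 5 spastic samples were under all 4 controls, and B6C3Fe lay within the spastic range. Ctss fell by 0.58 (SE 0.16, 95% interval -0.93 to -0.23, limma adjusted p = 0.026), from 12.28 ± 0.08 (SD, n = 4) to 11.71 ± 0.37 (SD, n = 5), or 1.5-fold. The call was lost without the 12-month male control or without the 9-month male control, with differences between -0.68 and -0.40 over the 9 samples left out in turn.

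Lgmn encodes legumain, a protease that cuts after asparagine and activates several cathepsins. Its level (93261_at) was 11.39, 11.28, 11.44 and 11.51 in controls. It was 10.68 in the 6-month spastic female, 10.96 and 10.95 in the 2-month females, 11.18 in the sev sample, 10.84 at 3+ months, and 11.28 in B6C3Fe. The groups did not overlap, and B6C3Fe fell at the lower edge of the controls. Lgmn fell by 0.48 (SE 0.11, 95% interval -0.72 to -0.24, limma adjusted p = 0.013), 1.39-fold, from 11.40 ± 0.10 (SD, n = 4) to 10.92 ± 0.18 (SD, n = 5). The call held with each of the 9 samples left out in turn (-0.55 to -0.42). Groups that did not overlap were found for 19.5% of all genes tested, 10.2% lower and 9.30% higher, and for Ctss and Lgmn among the 8.

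Mpeg1 encodes perforin-2, a pore-forming protein of phagosomes in macrophages. Its level on 99071_at was 9.74, 9.96, 9.93 and 9.94 in controls. In spastic cord it was 9.13 (6 months), 9.10 and 9.79 (2 months, Spa1 and Spa2), 8.72 (sev) and 8.56 (3+ months), with 9.68 in B6C3Fe. The Spa2 female alone reached the control range, and the samples titled male were again lowest. Mpeg1 fell by 0.87 (SE 0.20, 95% interval -1.29 to -0.44, limma adjusted p = 0.0118), 1.82-fold, from 9.89 ± 0.10 (SD, n = 4) to 9.06 ± 0.48 (SD, n = 5). It was called without any 1 of the samples, with differences from -1.01 to -0.76. The other probe set of Mpeg1 (162075_r_at) was at the floor on all 16 arrays and gave no level.

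Cd68, a glycoprotein of the lysosomal membrane used as a macrophage marker, did not pass the test. On 103016_s_at it had 8.98, 9.02, 8.67 and 8.51 in controls, 9.16, 9.11, 8.63, 9.02 and 9.16 in the spastic samples (6 months, Spa1, sev, 3+ months, Spa2) and 9.01 in B6C3Fe. The groups overlapped, and 3 of 5 spastic samples were above every control. The difference was 0.20 (SE 0.16, 95% interval -0.15 to 0.55, limma adjusted p = 0.408), so values from -0.15 to 0.55 lie within it. The second probe set (162173_i_at) was at the floor on 14 of 16 arrays and above it on array b of each 12-month control, with intensities of 85.5 and 77.0.

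The C1q genes showed no common shift between spastic and control cord. C1qa (98562_at) had 11.16, 11.44, 10.53 and 11.15 in controls, 11.55, 11.10, 10.92, 10.98 and 10.94 in spastic samples (order as for Cd68) and 11.05 in B6C3Fe. The 9-month female control was the lowest of all, and its array a read 915.9 on the intensity scale against 2374 on array b. The difference was 0.04 (SE 0.19, 95% interval -0.37 to 0.45, limma adjusted p = 0.909), and -0.15 without that array. C1qc (92223_at) had 10.72, 11.20, 10.37 and 10.84 in controls, 11.26, 10.76, 10.88, 10.71 and 10.94 in spastic samples and 11.28 in B6C3Fe. Its difference was 0.14 (SE 0.16, 95% interval -0.22 to 0.50, limma adjusted p = 0.597), with the groups overlapping.

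C1qb was read by 2 usable probe sets. On 96020_at the level was 9.98, 10.39, 10.12 and 10.43 in controls, 10.79, 9.72, 10.41, 9.82 and 10.28 in spastic samples and 10.33 in B6C3Fe. Spastic samples spread wider than controls on either side, and the difference was -0.02 (SE 0.21, 95% interval -0.47 to 0.44, limma adjusted p = 0.966). On 162276_i_at, tested in a fit of every probe set with no filter, controls had 9.33, 8.59, 8.56 and 8.52, spastic samples had 8.80, 7.84, 8.45, 7.77 and 8.85, and B6C3Fe had 9.43. There 3 spastic samples were under all controls, but the difference of -0.45 (SE 0.29, limma adjusted p = 0.392) did not pass. The 6-month spastic female was the highest spastic sample on 98562_at of C1qa (11.55), 96020_at of C1qb (10.79) and 92223_at of C1qc (11.26), but not on 162276_i_at, where Spa2 had 8.85 and it had 8.80.

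**Figure D2:**
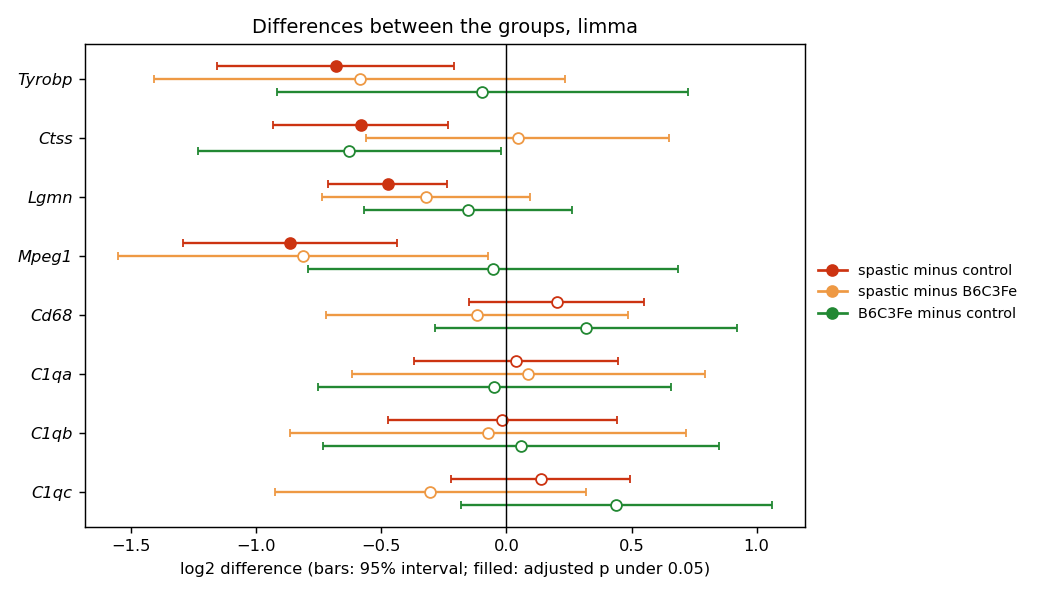
Difference in log2 level with its 95% interval for the 8 genes in 3 comparisons: spastic minus control, spastic minus B6C3Fe and B6C3Fe minus control. The intervals of Tyrobp, Ctss, Lgmn and Mpeg1 lie below 0 in the first, and those of Cd68 and the C1q genes cross 0 in all 3.

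The 4 calls did not withstand every change of samples or model. Without the 2 spastic samples titled male, whose Xist was that of females, only Lgmn kept its call, at -0.55 (limma adjusted p = 0.0487). The differences of the others were then -0.49 for Mpeg1 (adjusted p = 0.2), -0.38 for Ctss (adjusted p = 0.136) and -0.28 for Tyrobp (adjusted p = 0.479), and 6.22% of all genes were called. With the Pcx ratio in the model, Tyrobp was -0.62 (adjusted p = 0.366), Mpeg1 -0.47 (adjusted p = 0.379), Ctss -0.31 (adjusted p = 0.515) and Lgmn -0.30 (adjusted p = 0.336), with 0.14% of all genes and 0 of the 8 called (limma, 0 at an unadjusted p under 0.05). With B6C3Fe counted as a control and log2 of age as a term, Mpeg1 was -0.89 (limma adjusted p = 0.0278) and Lgmn -0.45 (adjusted p = 0.0476), while Ctss was -0.26 (adjusted p = 0.348). In that fit 10.9% of all genes were called. In all 26 alternatives the 4 differences were negative, and Tyrobp was called in 10 of them, Ctss in 18, Lgmn in 24 and Mpeg1 in 24. The part of age, of the Pcx ratio and of the mistitled samples in these differences was not tested.

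**Figure D3:**
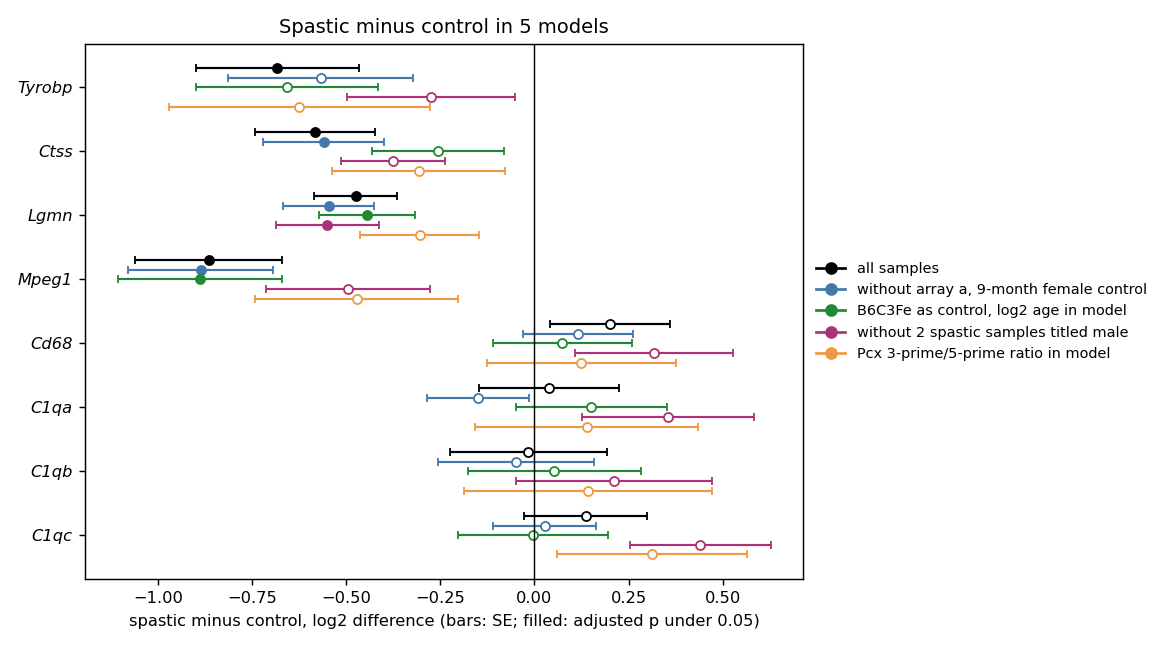
Spastic minus control difference in log2 level with its SE for the 8 genes under 5 models, on a log2 axis. All values of Tyrobp, Ctss, Lgmn and Mpeg1 lie below 0, those of Ctss nearest to 0 in the model with age, and C1qa, C1qb and C1qc change sign between models (filled points: adjusted p under 0.05).

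Against the single B6C3Fe sample, none of the 8 genes was called in spastic cord (limma, 1 at an unadjusted p under 0.05), where 2.05% of all genes were. The difference of Mpeg1 was -0.81 (95% interval -1.55 to -0.07, adjusted p = 0.214), Tyrobp -0.59 (95% interval -1.41 to 0.23) and Lgmn -0.32 (95% interval -0.74 to 0.10). Ctss differed by 0.05 (95% interval -0.56 to 0.65), and both the spastic samples and B6C3Fe lay under every control for it. The C1q genes lay between -0.30 (C1qc) and 0.09 (C1qa). All differences in this paragraph are adjusted for titled sex, which was not borne out for 2 of the 5 spastic samples, and B6C3Fe was male. The plain means were 9.15 in spastic samples and 9.52 in B6C3Fe for Tyrobp, and 9.06 and 9.68 for Mpeg1. The unadjusted result of Mpeg1 did not hold with no sex term, and no fit with the expressed sex was run. B6C3Fe itself was compared with the controls, and again none of the 8 was called (limma, 1 at an unadjusted p under 0.05; 0.389% of all genes). Ctss was the one, at -0.63 (95% interval -1.23 to -0.02, adjusted p = 0.32), and C1qc was 0.44 (95% interval -0.18 to 1.06). On 162276_i_at of C1qb, B6C3Fe was 0.88 above controls (adjusted p = 0.524) and the difference of spastic samples from it was -1.32 (adjusted p = 0.227).

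Age could be examined within the controls, where 12 months was compared with 9. Spastic samples were 2 to 6 months old and B6C3Fe was 1 month old, so this comparison did not cover their ages. None of the 8 genes was called (limma, 0 at an unadjusted p under 0.05), and 0% of all 6427 genes, with 346 at an unadjusted p under 0.05. C1qa was 0.46 higher at 12 months (95% interval -0.10 to 1.02), Cd68 0.41 (95% interval -0.05 to 0.87), Tyrobp 0.41 (95% interval -0.28 to 1.10) and C1qc 0.36 (95% interval -0.15 to 0.87), each with an interval that crosses 0. Ctss (-0.02), Mpeg1 (-0.09), C1qb (-0.09) and Lgmn (-0.14) had differences nearer 0. The second probe set of Cd68 (162173_i_at), in the fit of every probe set with no filter, was called 0.21 higher at 12 months (limma adjusted p = 0.0305). That value rests on the 2 arrays just above the floor, all other arrays being at it. The 12-month means of C1qa and Cd68 were 11.30 and 9.0, against 10.84 and 8.59 at 9 months. The 9-month means include array a of the female control, which stood apart. In that sample array a minus array b was -1.37 for C1qa, -0.80 for C1qc and -0.60 for Cd68, but 0.84 for Tyrobp. Array a thus lowered the 9-month means of C1qa, C1qc and Cd68 and raised that of Tyrobp.

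The spastic sample titled sev was set against the other 4 spastic samples, with no replicate of its own. No gene of the 8 was called (limma, 1 at an unadjusted p under 0.05), and 0.0156% of all genes. That 1 was Tyrobp, at 8.44 against a mean of 9.32 (difference -0.79, 95% interval -1.55 to -0.02, adjusted p = 0.995). The differences were 0.41 for Ctss, 0.33 for Lgmn, -0.42 for Cd68 and -0.35 for C1qa, all with intervals that cross 0. All differences in this paragraph are adjusted for titled sex, which was not borne out for the sev sample. They therefore depart from the plain levels, which for Ctss were 11.87 in the sev sample and a mean of 11.68 in the others.

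The precision of a sample can be read from the 6 samples with arrays a and b. The median absolute gap between letters was 0.07 for C1qa, 0.10 for C1qb (96020_at), 0.16 for Ctss and C1qc, 0.18 for Lgmn, 0.27 for Tyrobp and Cd68 and 0.39 for Mpeg1. The largest gap was in the 9-month female control for Tyrobp (0.84), Lgmn (0.52), Cd68 (0.60), C1qa (1.37) and C1qc (0.80). On that sample 5.80% of all genes differed by more than 1 between the letters, against 1.29% to 4.03% on the other 5.

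Other genes known in microglia were taken from a list of 48, of which 30 were on the array and 14 tested. Of these, 1 was called lower and 0 higher, 11 of 14 differences were negative and their median was -0.21 (median of all genes -0.02). Over all genes tested, 9.93% were called lower and 9.83% higher, and 52.7% of the differences were negative. The called gene was Ly86, which pairs with a Toll-like receptor relative, at 9.22, 9.17, 8.86 and 9.0 in controls, 8.49, 8.0, 8.14, 7.0 and 8.42 in spastic samples and 8.98 in B6C3Fe. Every spastic sample was under every control, and the difference was -1.09 (SE 0.26, limma adjusted p = 0.0141). Its call was lost without the samples titled male (-0.73, adjusted p = 0.0841). With 1 sample left out, 1 to 3 genes of the list were called lower, 2 without the 12-month or the 9-month female control and 3 without Spa2. Cx3cr1, the fractalkine receptor, missed the threshold at -0.65 (adjusted p = 0.0568) and was -0.74 (adjusted p = 0.0196) without array a of the 9-month female control, and -0.004 (adjusted p = 0.994) with the Pcx ratio in the model.

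The remaining 12 tested genes were not called. Lyz2 (-0.77), Apbb1ip (-0.51), Fcgr1 (-0.39), Irf8 (-0.34) and Laptm5 (-0.30) had the larger negative values. Spi1 (-0.09), which encodes PU.1, Cd14 (-0.07), Arhgdib (-0.01), Coro1a (0.004), P2rx7 (0.03) and Csf1 (0.04) lay near 0. Csf1r, the receptor for the growth factor that keeps microglia alive, had 10.26, 10.37, 10.71 and 10.66 in controls against 10.79, 10.47, 10.32, 9.96 and 10.49 in spastic samples, with a difference of -0.12 (adjusted p = 0.622). Aif1, Itgam, Fcer1g and Ptprc were near the floor, at it on 6, 9, 11 and 6 of 16 arrays, and not tested. These defining markers thus gave no usable level. Of the other genes under the filter, Entpd1 was at the floor on all 16 arrays, Tgfbr1 on 12 and Tlr7 on 11. Some others were at the floor on few or no arrays. Among them, Cd53 had means of 8.10 in controls, 6.82 in spastic samples and 8.03 in B6C3Fe. Vav1 had 7.58, 7.16 and 7.26, and Hk2 had 7.18, 7.10 and 6.33, none of them tested. The summed intensity of the 30 genes was 12440 to 14210 in controls, 9823 to 14360 in spastic samples and 12600 in B6C3Fe.

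For complement beyond C1q, 51 genes were listed, 31 were on the array and 10 tested, with 2 called higher, 0 lower and a median of 0.15. That share is close to the 19.8% called over all genes, and with any 1 sample left out 0 or 1 of the list was called. Those called were Vtn, an inhibitor of the terminal complex, at 0.48 (SE 0.15, limma adjusted p = 0.0486), and Lrp1, an endocytic receptor, at 0.36 (SE 0.12, adjusted p = 0.0489). Vtn had 9.19 to 9.62 in controls and 9.66 to 10.33 in spastic samples, with no overlap, and B6C3Fe had 8.80. Over the 9 samples left out in turn, Vtn kept its call only without Spa1 and Lrp1 only without Spa2. The inhibitor Serping1 (0.26), the C1 protease C1ra (-0.07), C2 (0.34) and Clu (-0.07) did not pass, and Cfi and Masp1 were at the floor on all 16 arrays.

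In the lysosome, 36 of 49 listed genes were tested, 2 were called higher and 1 lower, and the median was 0.01. Over all genes tested, 9.83% were called higher and 9.93% lower. Ctsf, a cathepsin, was 0.50 higher (SE 0.11, limma adjusted p = 0.0091), with all spastic samples (10.72 to 11.22) above all controls (10.43 to 10.61). Smpd1, acid sphingomyelinase, was 0.29 higher (adjusted p = 0.0394), and Asah1, acid ceramidase, fell by 0.42 (adjusted p = 0.0223). Ctsf was called whichever sample was left out, Asah1 in all fits but that without the 12-month female control, and Smpd1 only without the sev sample or without Spa2. Cathepsins D, B and L, read by Ctsd (0.12), Ctsb (0.01) and Ctsl (-0.10), did not pass, and 17 of the 36 differences were negative. Of the partners and kinases of Tyrobp, 10 of 34 were tested and 0 were called (limma, 1 at an unadjusted p under 0.05), with a median of -0.19; Syk had -0.09 and Fgr -0.28. Fyn, a kinase of the same pathway, had means of 10.70 in controls and 10.70 in spastic samples and 11.77 in the single B6C3Fe sample. Adjusted for titled sex, B6C3Fe was 1.06 above controls and spastic samples differed from B6C3Fe by -1.05. Both differences rest on that 1 sample. Among genes reported in disease-associated microglia, 22 of 35 were tested and 1 was called, B2m, at -0.81 (adjusted p = 0.0353), with a median of -0.10. B2m kept its call in 3 of the 9 fits with 1 sample left out, those without the 12-month female control, the 6-month spastic female or Spa2.

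Other blood-borne and border cells could carry some of the 8 genes. The counts for their lists stand against 9.83% of all genes tested called higher and 9.93% called lower. For monocytes and neutrophils, 11 of 26 genes were tested, 1 was called (Fn1, 0.59 higher, adjusted p = 0.0163) and the median was -0.71; S100a8 (-1.05), S100a9 (-1.31) and Ngp (-1.63) were not called. Without Spa2, 5 of the 11 were called lower and the median was -1.07; without any other sample, 0 were called lower. Their summed intensity was 9827 to 18150 in controls and 5901 to 29360 in spastic samples, 11830 in B6C3Fe. For lymphocytes, 6 of 27 were tested and 2 were called lower, Jchain (-0.96, adjusted p = 0.0169) and Ighm (-0.58, adjusted p = 0.0467), with a median of -0.34 and sums of 4089 to 5716, 3231 to 4559 and 4780. Jchain was called whichever sample was left out, and Ighm only without the 6-month spastic female or without Spa2. Cd8a was at the floor on all 16 arrays. Perivascular macrophage genes had 4 of 16 tested, 0 called (limma, 0 at an unadjusted p under 0.05), a median of -0.17 and sums of 1709 to 1912, 1558 to 1877 and 1841. Blood genes had 4 of 11 tested, 0 called (limma, 0 at an unadjusted p under 0.05) and a median of -0.15. Of 19 genes of neurons and macroglia, 14 were tested, 2 called higher (Syp, 0.72, and Nefm, 0.39) and 4 lower (Syt1, -2.83, Nefl, -1.10, Aqp4, -0.82, and S100b, -0.64). With 1 sample left out, 0 to 2 of that list were called higher and 4 lower. Without both spastic samples titled male, 1 was called higher and 2 lower. With the Pcx ratio as a term, 0 were called in either direction. The part of any of these cell types in the values of the 8 genes was not tested. The 10 called genes named from the immune and lysosomal lists all lost their calls when both spastic samples titled male were left out, and again with the Pcx ratio as a term.

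The genes whose levels most resembled Tyrobp over the 10 samples, by Pearson correlation, were Gpr137b-ps (0.94), Rexo2 (0.94), Serbp1 (0.92), Atg5 (0.92) and Smc2 (0.92). For C1qb they were Tgif2 (0.91), Man2a1 (0.88), Tmem109 (0.86), H2-DMa (0.85) and Kcnk2 (0.82). These are the highest among the 5694 tested genes with a symbol, the 8 genes described being left out of the search. They are given as a description, over samples that fall into 3 groups. Since Tyrobp was lower in spastic cord, its values include the difference between groups. Within the C1q genes, of 28 pairs computed over the 8 genes, C1qa and C1qc had r = 0.76 (permutation p = 0.0106, adjusted p = 0.149) and rho = 0.42 (permutation p = 0.232, adjusted p = 0.714), and r = 0.37 without the 2 samples farthest from the median. C1qb and C1qc had r = 0.63 (permutation p = 0.0519, adjusted p = 0.242) and rho = 0.64 (permutation p = 0.0541, adjusted p = 0.289). C1qa and C1qb had r = 0.45 (permutation p = 0.191, adjusted p = 0.511) and rho = 0.32 (permutation p = 0.367, adjusted p = 0.733). None passed the adjusted threshold, and of the other pairs of the 8 genes no correlation is given.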

How the data were processed

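The deposited values are linear intensity values, 1 for each of 12488 probe sets on each of 16 arrays of mouse spinal cord. Their mean after trimming 2% at each end was 800.4 to 800.5 on every array, so they were taken as scaled by the authors and not normalized again, with software not given in the sources used here. A floor was set at the 20th percentile of all intensities (60.9) before log2, which understates changes of dim genes, and the 66 control probe sets were not tested. Genes were tested above the 40th percentile of mean level, 1 probe set a gene (that with the highest mean), and names came from GEO's platform annotation. All 11 probe sets of the 8 genes had the same symbol in RefSeq. Groups, titled sex and age came from the titles. Arrays differing only in letter were averaged, giving 10 samples. limma 3.58.1 in R 4.3.3 was fitted over all 6427 genes with group and titled sex (lmFit, eBayes with a trend), 2-sided, with Benjamini-Hochberg adjustment, and was tested on simulated data. The lone B6C3Fe sample borrowed its spread from the other groups. The number of arrays limits the precision. Correlations used 1e+05 permutations. The text names the 8 genes, the tested genes of the microglial list, up to 4 called genes a direction of each list, and a few other list genes for reference that were chosen after their values were seen. The genes and lists were chosen with earlier results of these data known. The alternatives are in the closing section.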

Additional observations from a re-analysis of the deposited data

Results flagged for a closer look

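Of 22 sets of values examined, the control and the spastic samples of each of the 11 probe sets, 4 held a sample far from the others by Dixon's criterion, which flags about 1 in 20 by chance. Sets wholly at the floor had no range and could not be flagged. These were both groups on 162075_r_at of Mpeg1 and the spastic samples on 162173_i_at of Cd68. For Mpeg1 (99071_at), the 12-month female control had 9.74 and the nearest control 9.93, a gap of 0.869 of the range of the controls, which spans little. For Cd68 (103016_s_at), the spastic sample titled sev had 8.63 and the nearest spastic sample 9.02, a gap of 0.725 of the range. For C1qa (98562_at), the 6-month spastic female had 11.55 against 11.10 for the nearest, a gap of 0.718 of the range. For C1qb on 162276_i_at, the 12-month female control had 9.33 against 8.59 for the nearest, a gap of 0.917 of the range, while on the other probe set of C1qb, 96020_at, it was the lowest control at 9.98.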

How the results depend on the processing

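In spastic against control cord, where 4 of the 8 genes were called, 2 were called with no filter on low values, 1 with only the 1a arrays, 2 with B6C3Fe as a control and log2 of age as a term, 1 when both spastic samples titled male were left out and 0 with the Pcx ratio as a term (limma, 0 at an unadjusted p under 0.05). In these fits, in that order, 11%, 11.6%, 10.9%, 6.22% and 0.14% of all genes were called, against 19.8% in the main fit. Leaving out 1 sample at a time gave 2 to 4 of the 8, with 11.3% to 19.4% of all genes called. In B6C3Fe against controls, 1 gene (Ctss) was called with every array as its own replicate, and 1 (Ctss) with the letter as a replicate block. Those fits called 8.09% and 8.17% of all genes, many more than the main fit. With the letter block the spastic count was 4 of 8, the same genes, with 28.3% of all genes called. The letters have no stated meaning, so this was not taken as a pairing. Other alternatives kept the count within 1.5 times. For the other lists, the count called lower among microglial genes was 1 in the main fit. It was 4 with every array as its own replicate, 3 with the sample as a random block and 5 with the letter as a replicate block. Among monocyte and neutrophil genes the count was 5, 2 and 5, against 0. Those fits called 29.5%, 23.3% and 28.3% of all genes, against 19.8%. The signs of the uncalled C1q genes changed. C1qa was -0.013 with quantile normalization, -0.15 without array a of the 9-month female control, and -0.18 to 0.16 with 1 sample left out. C1qb was 0.004 with quantile normalization, 0.091 with every array as its own replicate, 0.054 with the sample as a random block, 0.17 with the letter as a replicate block, 0.004 with only the 1a arrays, 0.053 with age in the model, 0.21 with those titled male left out, 0.14 with the Pcx term, and -0.17 to 0.14 with 1 sample left out. C1qc was -0.003 with age in the model and -0.019 to 0.27 with 1 sample left out. The cause of these changes was not tested. With B6C3Fe among the controls, the comparison of 12 with 9 months was not run. That of the sev sample could not be run without the sev sample or without the samples titled male. Signal over background limits Aif1, Itgam, Fcer1g and Ptprc and the other probe sets of Mpeg1 and Cd68, all near the floor.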
